A study of Caenorhabditis elegans with 6 samples.

Results

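The histone genes of Caenorhabditis elegans were followed in RNA of neuronal nuclei pulled down from L1 larvae, the stage that hatches from the egg. The members were the features whose symbol is his- followed by a number, which made 72 of the 41862 features in the table. They were chosen by symbol and not by value. Of these, 30 had a mean of at least 10 normalized counts over the 6 libraries and entered the test, and 42 did not. The member just inside that minimum was his-70, with a mean of 10.3 normalized counts, and the one just outside was his-38, at 9.75.

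Libraries labelled as the CUT sextuple mutant (3 libraries, strain OH17055) were compared with control libraries labelled wildtype (3 libraries, strain OH16748). The mutant genotype is given as null for ceh-44, ceh-48 and ceh-38, and also for ceh-41, ceh-39 and ceh-21, homeobox genes of the CUT family. Both strains carry UPN INTACT, a transgene that tags nuclei so that they can be pulled down, named otIs790 in the control label. Animals of both groups were synchronised at L1 after an egg preparation and had been grown on NA22 bacteria. The labels do not spell out which cells UPN drives, and all 6 libraries are of the pulled-down fraction. Nothing in the labels says whether the replicates came from separate cultures, so p-values measure the spread between these libraries, which may be technical.

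Histones are the proteins around which DNA is wound. H2A, H2B, H3 and H4 form the core of the nucleosome, and the linker histone H1 binds the DNA between nucleosomes. In animals, most core histone genes lie in clusters, are transcribed during S phase when DNA is copied, and give messages that end in a stem-loop in place of a poly(A) tail. Replacement histones such as H3.3 are made outside S phase as well, and in cells that no longer divide, such as neurons, they are the source of new H3.

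Depth and markers frame all values. The recovered depth was 15500882 to 20844986 reads per library, and 3 reads, taken as the floor, were worth 2.44 to 3.79 normalized counts. The floor covers counting error only. Of the genes labelled null, ceh-48, ceh-41 and ceh-38, together with ceh-39 and ceh-21, were lower in all mutant libraries, with log2 differences of −7.29 to −0.80, and ceh-44 was higher by 0.82 (limma p from 0.00075 to 0.0179 after Benjamini-Hochberg adjustment). The ceh-44 call did not hold on leaving out control replicate 2 or 3 or mutant replicate 3 (limma adjusted p = 0.0816, 0.0707 and 0.0605), and that of ceh-38 without control replicate 1 or mutant replicate 3 (limma adjusted p = 0.055 and 0.0616). The word mutant stands for the label of a library throughout. No marker gene of the neuron, muscle or intestine list was at 0 in any library. Neuron markers summed to 185297 to 310946 normalized counts in mutant libraries and 384914 to 446470 in control libraries, and muscle markers to 244690 to 288354 in mutant and 213239 to 256172 in control libraries, so the fraction held RNA of both kinds. In such a bulk measurement, fewer cells of a type and less RNA per cell cannot be told apart.

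Whether a histone gene had reads at all followed how many loci share its symbol in the annotation. The Ensembl annotation of assembly WBcel235 gives 36 of the 72 members a symbol of their own and places the other 36 under 14 symbols that are each shared by 2, 3 or 4 loci. The members with their own symbol all had reads, from a mean of 3.84 normalized counts for his-39 to 1746 for his-35, and 30 of them passed the minimum. Among the members with a shared symbol, 28 were at 0 in all 6 libraries and none reached the minimum. For reads that could be assigned to a locus, a level of 0 allows up to 3 reads, or 2.44 to 3.79 normalized counts. Reads that map to several loci may have been left out, so this sets no limit on the RNA of these genes.

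The members at 0 were all core histone genes. The shared symbols covered 11 of 17 H2A genes, 11 of 16 H2B genes, 7 of 15 H3 genes and 7 of 16 H4 genes, and no H1 or H3.3 gene. The largest set was his-51, under which the H2A genes his-19, his-21, his-51 and his-53 are annotated, together with his-52, which covers the H2B genes his-20, his-22, his-52 and his-54. All of these were at 0 in every library. The highest member with a shared symbol was his-57, an H2A gene with a mean of 9.52 normalized counts, and its highest library was mutant replicate 2. Its values were 3.79, 41.4 and 3.38 in mutant replicates 1, 2 and 3 and 3.27, 5.21 and 0 in the control replicates, and it lies opposite klp-12, a kinesin gene with means of 7291 in mutant and 5641 in control libraries. How the authors treated reads that map to several loci, or strand, is not given in the sources used here, so the levels below are those of genes with a symbol of their own. Core histone genes of a class are near copies of each other, and how their reads were divided among them is uncertain.

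**Figure D1:**
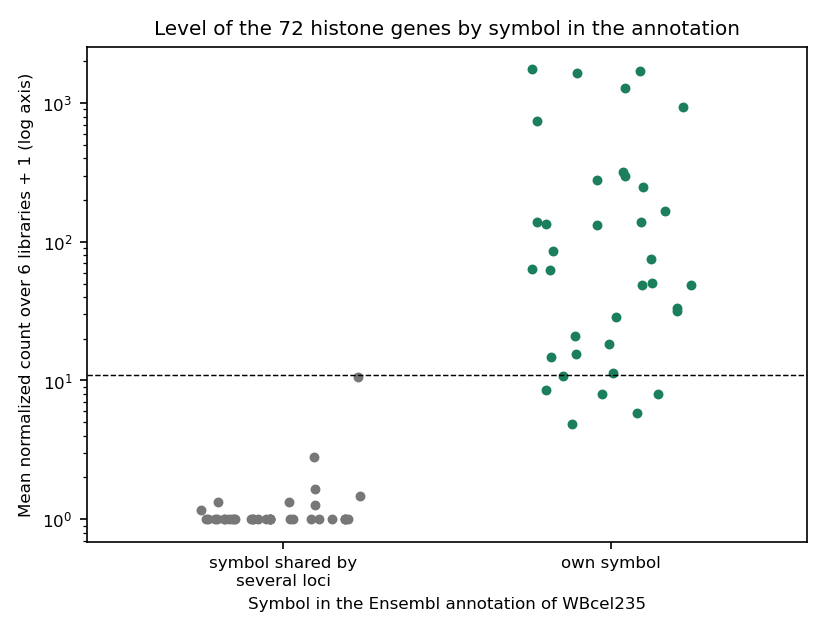
Mean normalized count over the 6 libraries plus 1, on a log axis, for each of the 72 histone genes, split by whether its symbol in the Ensembl annotation of WBcel235 is shared by several loci (left) or its own (right). The dashed line marks the minimum mean of 10. Of the 36 genes on the left, 28 sit at 0 and none passes the line, while 30 of the 36 on the right do.

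Per length of exon, the histone genes with the highest assigned counts were among those annotated with a UTR or an intron. This kind has 8 members, of which 7 were tested, and the other 64 members are a single exon that holds the coding sequence alone. In normalized counts per kilobase of exon, the H4 gene his-37 averaged 4211 in mutant and 3690 in control libraries, and the H2A gene his-35 averaged 3144 in mutant and 3869 in control libraries. The H3.3 genes his-72 and his-71 averaged 1953 and 1598 in mutant and 2079 and 1563 in control libraries. The linker histone gene his-24 averaged 1427 in mutant and 2122 in control libraries, and the H2B gene his-41 averaged 1164 in mutant and 1704 in control libraries. The H3.3 gene his-74 was low, at 20.2 in mutant and 27.5 in control libraries. Next in order came single-exon genes, led by the H4 gene his-60 at 931 in mutant and 645 in control libraries and the H3 gene his-42 at 931 in mutant and 618 in control libraries.

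Summed over each kind, the 8 genes with a UTR or an intron held most of the family's assigned counts. They summed to 7507 ± 715 normalized counts in mutant and 8615 ± 1779 in control libraries (SD, n = 3 each), and the 64 single-exon genes to 2922 ± 975 in mutant and 2020 ± 770 in control libraries (SD, n = 3 each). The family as a whole summed to 10429 ± 814 in mutant and 10635 ± 2299 in control libraries (SD, n = 3 each). It took 0.0593% ± 0.00934 of all normalized counts in mutant and 0.0532% ± 0.0119 in control libraries (SD, n = 3 each). The sums of both kinds and of the family overlapped between the groups, with 9553 to 11162 in mutant and 8732 to 13189 in control libraries for the family. The 28 members at 0 in all libraries were all single-exon genes, and reads that map to several loci may have been left out. The sums are therefore of assigned counts and do not rank the RNA of both kinds.

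**Figure D2:**
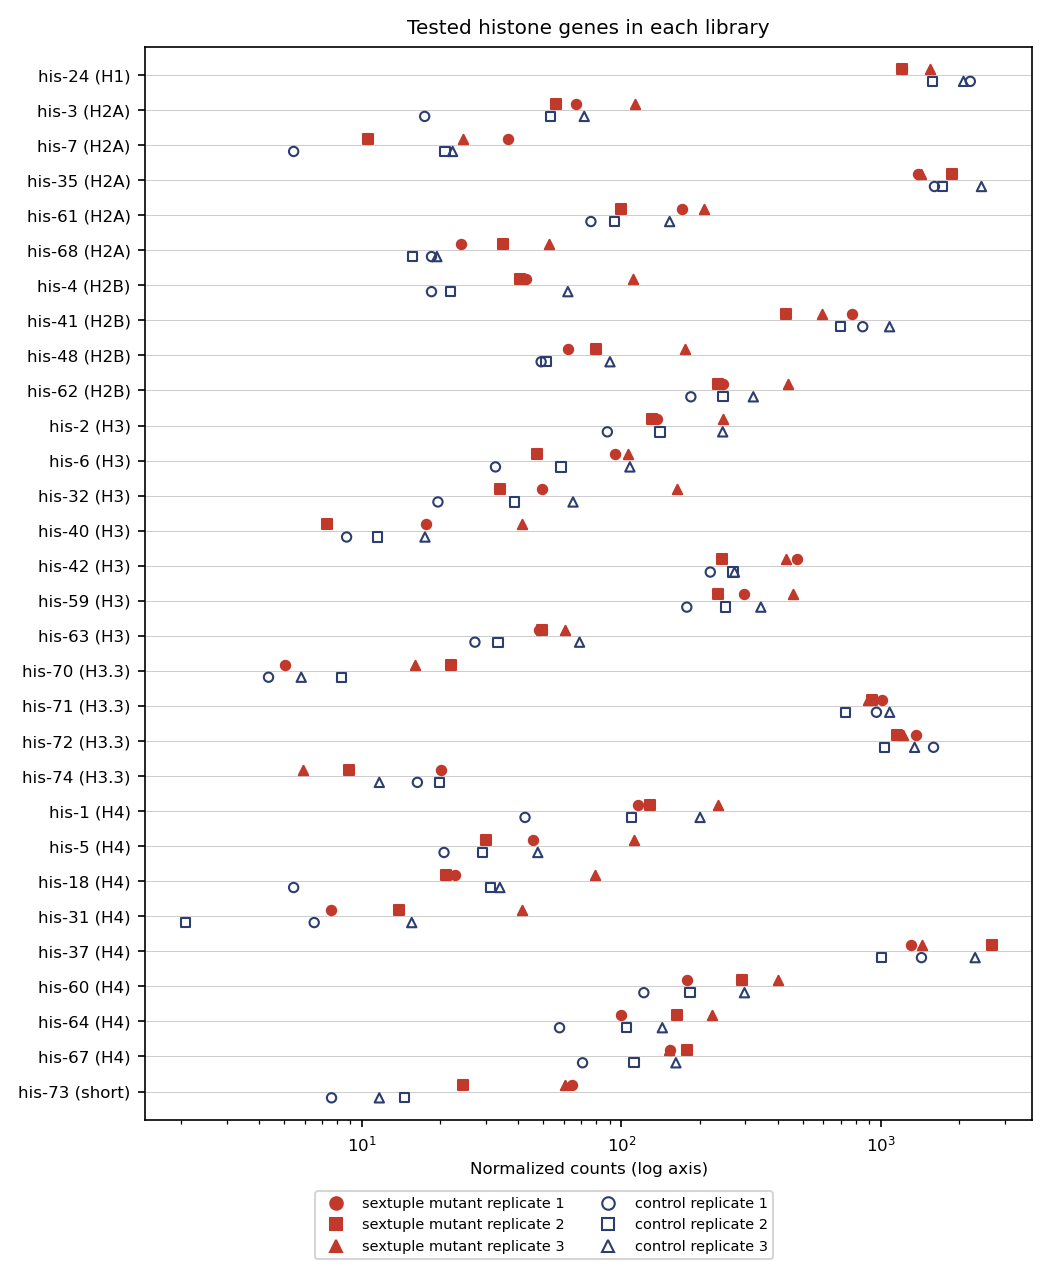
Normalized counts, on a log axis, of the 30 tested histone genes in each library, ordered by histone class (in parentheses, with "short" for a gene too short to place). Filled red symbols are the 3 mutant libraries and open blue symbols the 3 control libraries, and the symbol shape gives the replicate number. The genes his-35, his-37 and his-72, with a UTR or an intron, lie at 1005 or more in all libraries, and most single-exon genes lie furthest right in mutant replicate 3 and furthest left in control replicate 1.

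The comparison of mutant with control libraries asked whether histone RNA changed when the CUT genes were lost. Of the 30 tested histone genes 1, his-73, had a limma p under 0.05 after Benjamini-Hochberg adjustment over all tested features, and it was higher in mutant libraries. Over all 17900 tested features 18.1% passed, 7.56% higher and 10.5% lower, so the share of histone genes called was below the background. At an unadjusted p under 0.05 there were 4 histone genes (his-24, his-41, his-68 and his-73), against 34.8% of all features. The groups did not overlap for 3 of them (his-24, his-68 and his-73), against 40.0% of all features, and 2 of the 3 were higher in mutant libraries, against 19.5% of all features. The log2 difference, mutant minus control on the log2(normalized count + 1) scale, had a median of 0.55 over the 30 genes and −0.02 over all tested features, and its standard error had a median of 0.39 over the histone genes and 0.29 over all features. With the replicate number as a block, 4 of 30 passed, 2 higher (his-64 and his-73) and 2 lower (his-24 and his-41), against 26.3% of all features, 11.1% higher and 15.2% lower. On recovered reads edgeR called 1 histone gene, his-73, against 8.84% of all features higher and 9.65% lower, and DESeq2 called his-73 higher and his-24 lower, against 10.4% and 12.9%.

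The called gene, his-73, is a short reading frame of 138 coding bases that was not placed in a histone class. Its normalized counts were 64.5, 24.4 and 60.8 in mutant replicates 1, 2 and 3, against 7.62, 14.6 and 11.6 in control replicates 1, 2 and 3. Every mutant library was above every control library, and replicate 2 was the nearest pair. The difference was 1.97 (SE 0.48, limma adjusted p = 0.0209), and edgeR and DESeq2 on recovered reads gave adjusted p of 0.0179 and 0.00161. It no longer passed when control replicate 1 or 3 or mutant replicate 3 was left out (limma adjusted p = 0.075, 0.056 and 0.0839). In the annotation, his-73 overlaps the protein-coding gene W09H1.4 on the same strand. W09H1.4 had 37.9, 44.7 and 43.1 normalized counts in mutant libraries, against 4.36, 9.39 and 6.80 in control libraries, a difference of 2.50 (SE 0.43, limma adjusted p = 0.0047). Which of the overlapping genes the reads of his-73 come from was not tested.

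**Figure D3:**
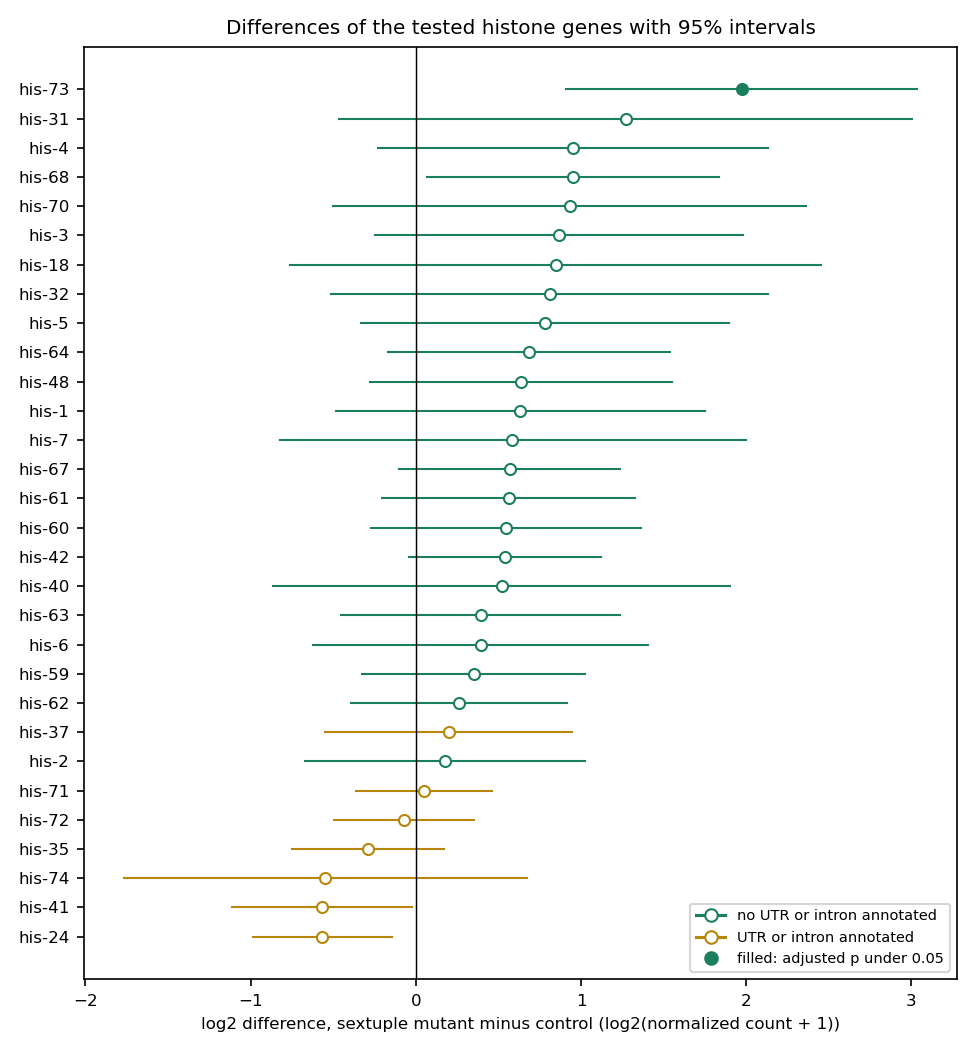
Log2 difference, mutant minus control on the log2(normalized count + 1) scale, of the 30 tested histone genes (circles) with 95% intervals from limma (lines). Green marks single-exon genes and ochre genes annotated with a UTR or an intron, and the filled circle, his-73, is the gene with an adjusted p under 0.05. The green circles all lie right of 0 and 5 of the 7 ochre circles lie left of it, while the intervals of most genes span 0.

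Single-exon core histone genes, the kind that in animals is read in S phase, stood higher on average in mutant libraries. None of them passed the test without the replicate block, and, his-68 apart, their groups overlapped. The division into genes with and without a UTR or an intron was made with the values known and carries no test. All 23 tested single-exon members, his-73 and the H3.3 gene his-70 included, had a difference above 0, where 48.8% of all tested features did. The median was 0.63 and the range 0.18 (his-2) to 1.97 (his-73). All 23 were also above 0 under scaling to equal totals, quantile normalization and median centring. These scalings moved the median of all tested features up, from −0.02 to 0.15, 0.02 and 0.04, so they could hardly have turned these differences. Only his-73 of them passed without the replicate block, and with it his-64 passed too (limma adjusted p = 0.0472). Control replicate 1 held the lowest value for 20 of the 23 genes and mutant replicate 3 the highest for 16. The median difference of the 23 genes was 0.30 without control replicate 1 and 0.32 without mutant replicate 3, and 20 of the 23 differences stayed above 0 in each case. Their sums were 2487, 2239 and 4038 normalized counts in mutant replicates 1, 2 and 3 over all 64 single-exon members, against 1299, 1931 and 2831 in the control replicates. Control replicate 3 was above mutant replicates 1 and 2, while within each of the 3 same-numbered pairs the mutant library was the higher one.

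The cluster of his-59, his-60, his-61 and his-62 was the most abundant complete set of the 4 core histones among single-exon genes. These neighbours encode H3, H4, H2A and H2B. The H3 gene his-59 had 297, 237 and 459 normalized counts in mutant replicates 1, 2 and 3, against 179, 252 and 345 in the control replicates, a difference of 0.35 (SE 0.30, limma adjusted p = 0.435). Its divergent partner his-60, for H4, had 178, 292 and 402 in mutant libraries, against 122, 184 and 298 in control libraries. For H2A, his-61 had 171, 99.97 and 208 in mutant libraries, against 76.2, 93.9 and 153 in control libraries. The H2B gene his-62 had 245, 234.9 and 440 in mutant libraries, against 185, 246 and 322 in control libraries. In all 4 genes replicate 3 was the highest and replicate 1 the lowest of the controls, and the groups overlapped. The differences of his-60, his-61 and his-62 were 0.55, 0.56 and 0.26 (SE 0.37, 0.34 and 0.29, limma adjusted p = 0.314, 0.27 and 0.556).

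In another set of neighbours, his-1 to his-4, control replicate 1 was again the lowest library and replicate 3 the highest of each group. The H4 gene his-1 had 116, 129 and 236 normalized counts in mutant libraries, against 42.5, 110 and 201 in control libraries. The H3 gene his-2 had 137, 132 and 246 in mutant libraries, against 88.2, 141 and 246 in control libraries. The H2A gene his-3 and the H2B gene his-4 averaged 78.4 ± 29.8 and 64.7 ± 39.7 in mutant libraries, against 47.5 ± 27.7 and 34.2 ± 24.3 in control libraries (SD, n = 3 each). The differences of the 4 genes were 0.63, 0.18, 0.86 and 0.95, with limma adjusted p of 0.394, 0.769, 0.245 and 0.228. In the set of his-5 to his-8, the H4 gene his-5, the H3 gene his-6 and the H2A gene his-7 differed by 0.78, 0.39 and 0.58 (limma adjusted p = 0.289, 0.572 and 0.541), and the H2B gene his-8 was under the minimum, with means of 10.5 in mutant and 3.42 in control libraries.

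Among the other single-exon members, the H2A gene his-68 was the core histone gene whose groups did not overlap. It had 24.02, 34.9 and 52.3 normalized counts in mutant libraries, against 18.5, 15.6 and 19.4 in control libraries. All mutant libraries lay above all controls, at a difference of 0.95 (SE 0.40, limma adjusted p = 0.12). Its neighbour his-67, for H4, had 154, 179 and 153 in mutant libraries, against 70.8, 112 and 162 in control libraries, and overlapped (difference 0.57, limma adjusted p = 0.208). The H4 gene his-64 had 99.9, 163.4 and 224 in mutant libraries, against 57.7, 104 and 144 in control libraries. Each mutant replicate of his-64 was above the control of the same number while the groups overlapped, and its difference of 0.69 (SE 0.38) had a limma adjusted p of 0.23 without and 0.0472 with the replicate block. The largest core histone difference was 1.27 (SE 0.78, limma adjusted p = 0.272) for the H4 gene his-31, which had 7.58, 13.8 and 41.4 in mutant libraries, against 6.53, 2.09 and 15.5 in control libraries.

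The most abundant single-exon gene, his-42, for H3, kept another order of libraries. It had 474, 244 and 431 normalized counts in mutant replicates 1, 2 and 3, against 220, 269 and 273 in the control replicates. Mutant replicates 1 and 3 lay above all controls and mutant replicate 2 among them. The difference was 0.54 (SE 0.26, limma adjusted p = 0.172), and without mutant replicate 2 it was 0.83 with an adjusted p of 0.0167. The remaining tested H2B, H3 and H4 genes (his-48, his-32, his-40, his-63 and his-18) differed by 0.39 to 0.85, with limma adjusted p from 0.294 to 0.584.

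Linker histone his-24 and the H2B gene his-41 stood lower in mutant libraries and missed the threshold without the block. The linker gene had 1205, 1205 and 1541 normalized counts in mutant replicates 1, 2 and 3, against 2213, 1579 and 2083 in the control replicates. Its groups did not overlap, with mutant replicate 3 just under control replicate 2. The difference was −0.57 (SE 0.19, limma adjusted p = 0.0623, or 0.0262 with the replicate block), and DESeq2 and edgeR on recovered reads gave adjusted p of 0.0411 and 0.0736. For his-41 the values were 774, 431 and 594 in mutant libraries, against 852, 701 and 1080 in control libraries. Each mutant library was under the control of the same number, and the groups overlapped through mutant replicate 1 and control replicate 2. The difference was −0.57 (SE 0.24, limma adjusted p = 0.131, or 0.0459 with the replicate block, and 0.0438 without mutant replicate 1). On the same strand his-41 overlaps the protein-coding gene C50F4.6, which had means of 241 in mutant and 182 in control libraries. On the strand opposite his-24 lies the noncoding gene M163.16, with means of 18.3 in mutant and 2.06 in control libraries.

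Beside his-41 lie the genes his-35 and his-37, also annotated with more than coding sequence, which were not called in any fit given here. The H2A gene his-35 had 1387, 1889 and 1422 normalized counts in mutant libraries, against 1609, 1728 and 2442 in control libraries, a difference of −0.29 (SE 0.21, limma adjusted p = 0.347). The H4 gene his-37 had 1302, 2676 and 1443 in mutant libraries, against 1434, 1005 and 2309 in control libraries, a difference of 0.20 (SE 0.34, limma adjusted p = 0.705). The groups overlapped for both genes. Mutant replicate 2 stood apart for his-37, and nstp-10, a gene on the opposite strand that overlaps it, had 297, 1003 and 246 in mutant libraries, against 244, 192 and 171 in control libraries.

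The abundant H3.3 replacement histone genes, his-71 and his-72, had the smallest differences of the 30 tested members. For his-72 the values were 1364, 1156 and 1219 normalized counts in mutant libraries, against 1596, 1034 and 1349 in control libraries. For his-71 they were 1011, 926 and 896 in mutant libraries, against 962, 729 and 1081 in control libraries. The differences were −0.07 (SE 0.19, 95% interval −0.50 to 0.35) and 0.05 (SE 0.18, 95% interval −0.36 to 0.46), with limma adjusted p of 0.817 and 0.874. Under scaling to equal totals, which moved the median of all tested features up to 0.15, the difference of his-72 was 0.11, and without control replicate 2 that of his-71 was −0.11. A small nucleolar RNA gene, Y49E10.36, overlaps his-72 on the same strand. The other H3.3 genes were near the floor or low. Means of his-70 were 14.3 ± 8.57 in mutant and 6.17 ± 2.02 in control libraries, those of his-74 were 11.7 ± 7.54 in mutant and 15.9 ± 4.10 in control libraries, and those of his-69, which was not tested, were 4.21 ± 3.06 in mutant and 5.37 ± 3.76 in control libraries (SD, n = 3 each). The differences of his-70 and his-74 were 0.93 and −0.55, with limma adjusted p of 0.328 and 0.504.

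**Figure D4:**
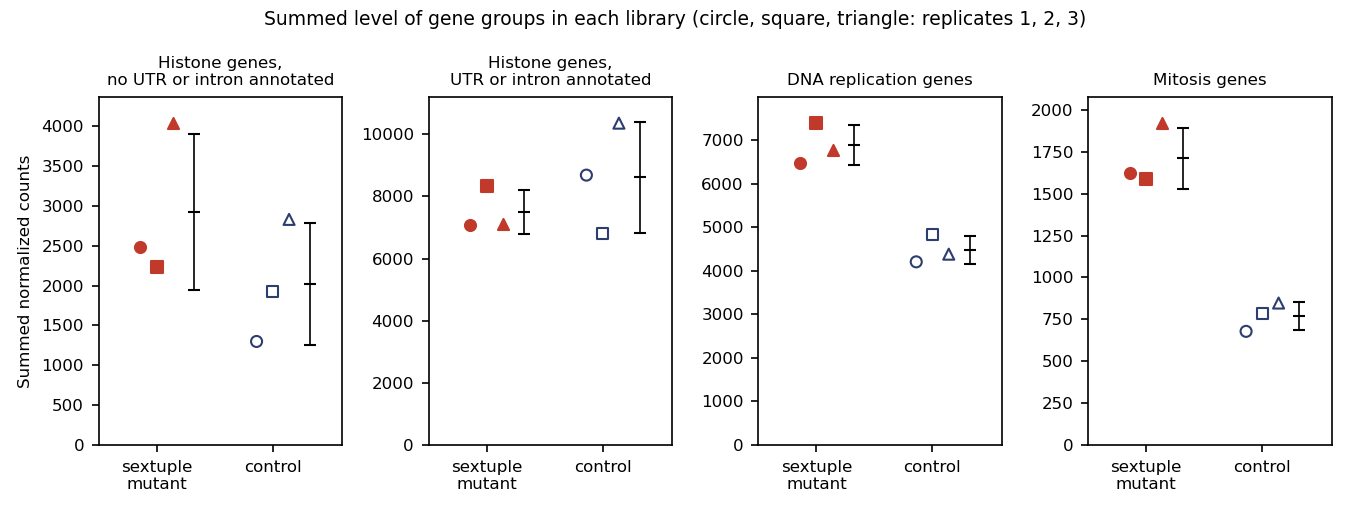
Summed normalized counts, per library, of the 64 single-exon histone genes, the 8 histone genes annotated with a UTR or an intron, 26 DNA replication genes and 12 mitosis genes. Each panel has mutant libraries on the left and control libraries on the right, the symbol shape gives the replicate number, and the bars beside them show mean and SD (n = 3). The groups overlap for both histone panels and do not overlap for DNA replication (6487 to 7392 in mutant, 4207 to 4824 in control libraries) or mitosis (1590 to 1921 in mutant, 678 to 847 in control libraries).

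Genes that work with histones in dividing cells were compared next, in lists drawn from general knowledge of the worm. The lists were chosen with earlier results of these data known, so their counts of calls are descriptive only. All calls among these genes were higher in mutant libraries, where 7.56% of all features were. The 26 DNA replication genes all had a difference above 0, where 48.8% of all features did, with a list median of 0.80. Of them 13 were called, and with the replicate block rnr-1 passed too (limma adjusted p = 0.0406, against 0.0729 without it). They included mcm-7, a subunit of the replicative helicase, at 150 ± 34.6 in mutant and 43.8 ± 7.75 normalized counts in control libraries, and pole-1, for a DNA polymerase subunit, at 393 ± 72.9 in mutant and 150 ± 16.9 in control libraries (SD, n = 3 each). Their differences were 1.75 and 1.37 (limma adjusted p = 0.00318 and 0.00274), and the DNA ligase gene lig-1, the clamp loader gene rfc-4 and the helicase gene mcm-3 rose by 1.31, 1.73 and 1.06 (limma adjusted p from 0.00492 to 0.0109). Of 12 mitosis genes 11 had a difference above 0 and 7 were called. Among the 7 was cyk-4, for a GTPase-activating protein of cytokinesis, at 312 ± 10.1 in mutant and 89.9 ± 11.6 in control libraries (SD, n = 3 each, difference 1.79, limma adjusted p = 0.000701). The cyclin gene cyb-3, the spindle checkpoint gene bub-1, the kinetochore gene knl-1 and cdc-25.1, for a cell cycle phosphatase, rose by 1.997, 1.35, 1.20 and 0.98 (limma adjusted p from 0.00984 to 0.0158). The counts of 13 and 7 were 6 and 2 without control replicate 1, 8 and 4 without control replicate 2, and 5 and 2 without mutant replicate 3. Calls over all features also varied when 1 library was left out, from 1509 to 4118, against 3239 with all 6 libraries.

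Histone chaperones hand histones to DNA, and 7 of the 11 tested genes of their list were called higher, against 7.56% of all features. Of the 11 genes 10 had a difference above 0, where 48.8% of all features did, with a median of 0.92. For rba-1 and lin-53, which encode RbAp46/48-type subunits of chromatin assembly complexes, the means were 343 ± 45.97 and 368 ± 29.97 normalized counts in mutant libraries, against 124 ± 25.7 and 157 ± 40.7 in control libraries (SD, n = 3 each). Their differences were 1.47 and 1.26 (limma adjusted p = 0.00272 and 0.00692). The ATRX-type gene xnp-1 rose by 0.92, the chromatin assembly factor gene chaf-2 by 1.22, and hira-1, for the chaperone that places H3.3, by 0.86 (limma adjusted p = 0.0117, 0.0144 and 0.0161). The remaining calls were chaf-1 and unc-85. The FACT subunit gene spt-16 differed by −0.14 (limma adjusted p = 0.589), and by 0.04 under scaling to equal totals. The 7 calls were 3 without control replicate 1, 3 without control replicate 3 and 4 without mutant replicate 3.

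Genes for the 3′ ends of histone messages were a list of 5, all with a difference above 0, where 48.8% of all features had one. Of the 5 genes 3 were called higher, against 7.56% of all features. All 5 had groups that did not overlap, higher in mutant libraries, against 19.5% of all features. The stem-loop binding protein gene cdl-1 had 169, 103 and 169 normalized counts in mutant replicates 1, 2 and 3, against 67.5, 60.5 and 83.5 in the control replicates, a difference of 1.03 (SE 0.28, limma adjusted p = 0.0305). The helicase gene drh-3 and the Tudor domain gene ekl-1, of the CSR-1 small RNA pathway, rose by 1.23 and 0.63 (limma adjusted p = 0.0016 and 0.0338). For csr-1 and ego-1 the differences were 0.61 and 0.75 (limma adjusted p = 0.0833 and 0.061), and all 5 passed with the replicate block, higher, against 11.1% of all features. Only drh-3 passed without any 1 of the control libraries or without mutant replicate 3. Among 10 tested histone genes with other symbols, 0 passed with limma, and edgeR and DESeq2 called 1 and 0, against 18.5% and 23.3% of all features. At an unadjusted p under 0.05 there were 2, against 34.8% of all features. These were the H2A.Z gene htz-1, at 887 ± 89.3 in mutant and 624 ± 84.2 in control libraries, and the linker histone gene hil-2, at 873 ± 156 in mutant and 561 ± 161 in control libraries (SD, n = 3 each), with differences of 0.51 and 0.66. Their limma adjusted p was 0.0708 and 0.071, and 0.0335 and 0.0162 with the replicate block.

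**Figure D5:**
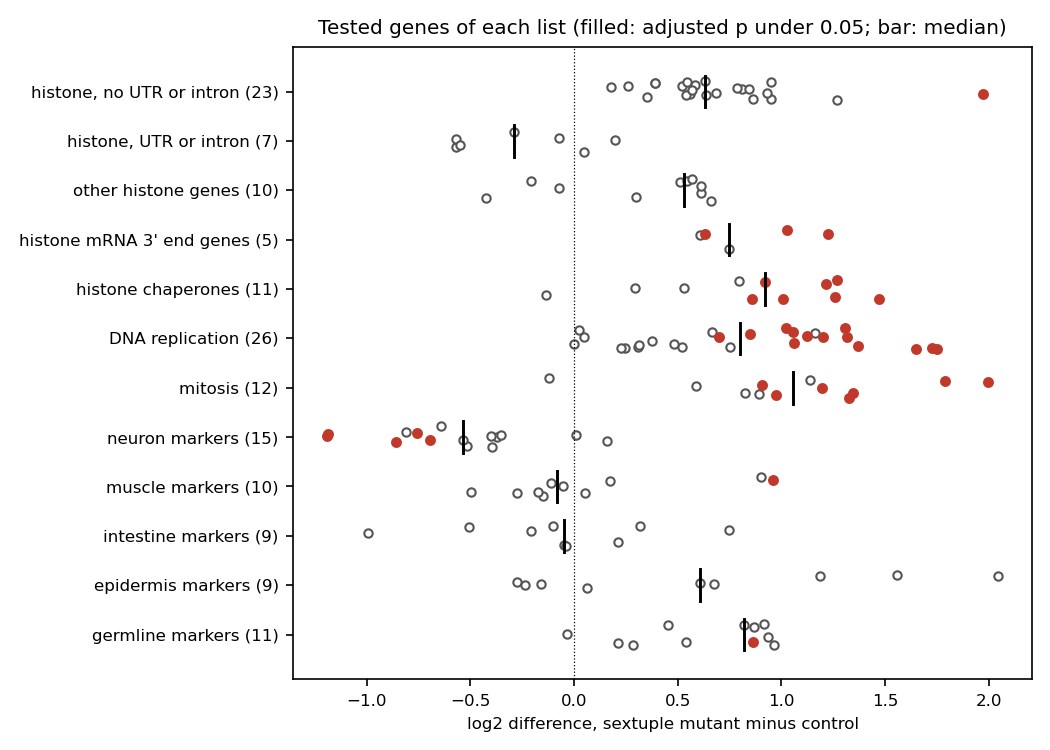
Log2 difference, mutant minus control on the log2(normalized count + 1) scale, of every tested gene of each list, with the number of genes in parentheses and a bar at the list's median. Filled circles have a limma adjusted p under 0.05. The single-exon histone genes sit right of 0 with 1 filled circle, while 13 of 26 DNA replication genes, 7 of 12 mitosis genes and 7 of 11 chaperone genes are filled, all on the right.

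Markers of other cells moved with these genes in part, and their share in the differences was not tested. Germline markers summed to 896, 1247 and 936 normalized counts in mutant libraries, against 602, 697 and 572 in control libraries, with no overlap. Of their 11 tested genes 10 had a difference above 0, at a median of 0.82, where 48.8% of all features did. Of the 11 genes 1, xnd-1, passed and was higher, against 7.56% of all features (difference 0.86, limma adjusted p = 0.0492). Without any 1 library xnd-1 did not pass (limma adjusted p from 0.0754 to 0.147), and the list had 2 calls without mutant replicate 1 and 0 without any other library. With the replicate block xnd-1 did not pass and pgl-1 and glh-1 did, higher, against 11.1% of all features (limma adjusted p = 0.0523, 0.0409 and 0.0169). On recovered reads edgeR and DESeq2 called 2 and 3 germline markers higher, against 8.84% and 10.4% of all features. None of the 12 was at 0 in any library, and nos-2, the list's untested gene, was at 11.9 ± 3.94 in mutant and 5.02 ± 4.10 in control libraries (SD, n = 3 each). Epidermis markers, like the single-exon histones, had their highest sums in mutant replicate 3 and control replicate 3. Sums were 1916, 1878 and 3896 in mutant libraries, against 1710, 1488 and 2612 in control libraries. Of these, sqt-3 alone held 297, 636 and 2093 in mutant and 287, 130 and 885 in control libraries. Of 9 tested genes 6 differed above 0 and 3 below, among the latter elt-3 (−0.27) and nhr-25 (−0.24). At a minimum mean of 50, the 4 genes left had a median of −0.09. Of the 9 genes 0 passed with limma without the block, with 2 at an unadjusted p under 0.05, against 34.8% of all features. On recovered reads edgeR and DESeq2 called 0 and 2, against 18.5% and 23.3%. With the replicate block the collagen genes sqt-3 and dpy-10 passed and were higher, against 11.1% of all features (limma adjusted p = 0.0333 and 0.0383). Of the neuron markers 5 of 15 were called, all lower, against 10.5% of all features, with a median of −0.53. These were egl-3 and sbt-1, which differed by −1.19 and −1.18, and rgef-1, ric-19 and unc-119, which differed by −0.86, −0.76 and −0.69 (limma adjusted p from 0.0148 to 0.0335). With the replicate block rab-3, unc-10 and egl-21 were called as well, which made 8 lower, against 15.2% of all features. The count of 5 was 0 without control replicate 1, 1 without control replicate 2, 0 without control replicate 3, 8 without mutant replicate 1 and 1 without mutant replicate 3. Leaving out 1 library gave 1509 to 4118 calls over all features, against 3239 with all 6 libraries. Of 10 muscle markers 1, unc-89, passed and was higher, against 7.56% of all features. It did not pass when replicate 2 or 3 of the control or replicate 3 of the mutant was left out. Of 9 intestine markers 0 passed with limma without the block, edgeR or DESeq2, with 1 at an unadjusted p under 0.05, against 34.8% of all features. With the replicate block ges-1 passed and was higher, against 11.1% of all features (limma adjusted p = 0.0438).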

How the data were processed

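RNA of immunoprecipitated L1 nuclei was measured in 3 libraries labelled sextuple mutant and 3 control libraries. The authors deposited 1 table of counts divided by a size factor per library, a signal on the scale of reads. STAR, featureCounts and DESeq2 are named in the submitters' processing notes. Versions, genome build, strand setting and the treatment of multiply mapping reads are not given in the sources used here. All values in each library were whole multiples of what 1 read is worth (100% within 0.01), so reads were recovered, giving 15500882 to 20844986 per library.

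Features with a mean of at least 10 normalized counts over the 6 libraries (17900 of 41862) were tested on log2(normalized count + 1) with limma 3.58.1 with a variance trend in R 4.3.3, as mutant minus control, with Benjamini-Hochberg adjustment over all 17900 and a threshold of 0.05. A fold change on this scale understates the change of low genes. Alternatives were edgeR 4.0.16 and DESeq2 1.42.0 on recovered reads, other scalings, filters and pseudocounts, and leaving out each library. The fits were tested on simulated data.

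The titles number replicates 1 to 3 in both groups. Same-numbered libraries deviated together (correlations of 0.254, 0.196 and 0.146 over tested features, against −0.201 to 0.00493 for libraries of different numbers). Deviations from a group mean sum to 0 in each gene, so the values for different numbers are not independent of those for the same number. With that limit, the numbers were taken to pair the libraries. The fit without the block stayed the main test, and a fit with the replicate number as a block is given where it changes a call.

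Histone members are symbols of his- and a number. Their classes come from general knowledge, checked by coding length, which was that of the class for 64 of 64 H2A, H2B, H3 and H4 genes. The H1 and H3.3 genes were not checked by length. Length cannot tell H3 from H3.3, since genes of both can have 408 coding bases. Symbols shared between loci, exon lengths, UTRs and overlaps come from the Ensembl annotation of WBcel235, used for names, lengths and neighbours alone. The members and lists were chosen with earlier results of these data known. Every tested histone gene is given, and from each other list the 5 called genes with the lowest adjusted p, with other genes named for their role or overlap after their values were seen.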

Additional observations from a re-analysis of the deposited data

How the results depend on the processing

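The count of histone genes called, 1 of 30 and higher, was 2 with DESeq2 (1 higher, 1 lower), 4 with the replicate block (2 higher, 2 lower), 0 with a minimum mean of 50, where his-73 was not among the 19 members tested, and 0 at an adjusted p of 0.01, where 1107 of all features were called. It was 0 to 2 when 1 library was left out (0 to 2 higher, 0 to 1 lower), and all features called were 1509 to 4118. The median difference of the histone genes was 0.202 to 0.849 over those fits. Among the tested histone genes, differences that changed sign were those of his-72 (0.106 under equal totals with or without histone genes, 0.033 under quantile normalization, and −0.239 to 0.074 when 1 library was left out), and, when 1 library was left out, of his-37 (−0.124 to 0.512), his-71 (−0.113 to 0.171), his-62 (−0.029 to 0.459), his-2 (−0.178 to 0.555), his-6 (−0.027 to 0.819), his-7 (−0.018 to 1.059) and his-40 (−0.069 to 1.105). The single-exon genes among them turned without control replicate 1 (his-2, his-6 and his-7) or mutant replicate 3 (his-2, his-40 and his-62). The chaperone gene spt-16 was at 0.04 under equal totals with or without histone genes. None of these genes was called in any fit, and the cause was not tested. Without a variance trend, 1 of 5 histone 3′-end genes and 1 of 15 neuron markers were called, against 3 and 5 with it. DNA replication, mitosis and chaperone calls fell too, from 13, 7 and 7 to 10, 6 and 6, and the histone count stayed at 1. Calls over all features were 1107 to 4707 across all settings, and whether the falls are particular to these lists was not tested. Genes near 10 normalized counts rest on few reads.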
